A study of Rattus norvegicus with 6 samples.

Results

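The genes of cholesterol synthesis, uptake and efflux were followed in RBL-2H3 cells, a rat basophilic leukemia line that serves as a laboratory model of mast cells and basophils. The set was a list of 31 gene symbols, looked up by symbol in the deposited table of 22601 genes, and all 31 were found. It was divided by role into 18 synthesis genes, 4 sterol sensing genes, 2 uptake genes, 5 genes of efflux and of the LXR receptors that control it, and 2 genes of sterol transfer and esterification. Wild-type cells grown in serum-containing medium were either left as controls (3 libraries) or exposed for 6 h to 10 µM PIO, which the series uses as its PPARγ agonist (3 libraries), and mRNA was sequenced. The vehicle and the collection time of the controls are not given in the sources used here, so neither can be told apart from PIO. The labels do not say that replicates were separate cultures, so p-values speak of the scatter among the 6 libraries, and that scatter may be technical.

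Cells make cholesterol from acetyl-CoA by the mevalonate route. When sterols in the endoplasmic reticulum run low, the chaperone SCAP carries the transcription factor SREBP2 out of that compartment, SREBP2 is cut and released, and it switches on the synthesis genes; when sterols are plentiful, INSIG proteins hold SCAP back. Sterol excess is handled by the LXR receptors, which bind oxysterols and switch on the exporters ABCA1 and ABCG1, apolipoprotein E and the ubiquitin ligase MYLIP, which limits lipoprotein uptake. In macrophages, PPARγ agonists are known to act on this second branch through the gene of LXRα.

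Values are FPKM, that is fragments scaled to gene length and to the reads of the library. Whole reads could be recovered from them, and the library totals were 14048202 to 15084729 reads. Cpt1a, the carnitine palmitoyltransferase gene and a known PPAR target, is given as a reference for the size of a called change. It stood at 5.90, 6.49 and 5.76 FPKM in the controls and 12.7, 12.3 and 12.6 FPKM with PIO, that is 0.99 on the log2 scale (limma adjusted p = 0.00159). Reads of the receptor genes themselves were uneven: Ppard had 618 to 662 reads per library, whereas Pparg had 1, 0 and 1 reads in the controls and 0 in each PIO library. In Atf4, a stress-response gene, control replicate 3 stood apart at 617 FPKM, against 277 to 279 FPKM in the other controls and 240 to 255 FPKM with PIO. Of 14 mast cell and basophil markers 11 had a mean of at least 1 FPKM, led by Srgn at 1710 FPKM, and Tpsab1 and Mcpt8 were listed at 0. Markers of other cells were near 0 apart from Nkg7, at 336 FPKM in the T and NK cell list. The 5 adipocyte markers summed to at most 0.0405 FPKM in the controls and 0.114 FPKM with PIO, with Fabp4 and Lep listed at 0. The 9 macrophage markers summed to 1.99 to 2.35 FPKM in the controls and 2.04 to 2.45 FPKM with PIO, with Marco, C1qa and C1qb listed at 0. In bulk RNA, fewer cells of a type and less RNA per cell cannot be told apart.

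The promoters of 4 genes that are described below are shown first, with 2 kinds of short sequence element marked. Of the 31 genes 25 had an entry among the RefSeq promoters of the assembly GRCr8, with 27 promoters in all. In each the 250 bases before the annotated start are printed 5′ to 3′ on the strand of the gene. Capitals mark CCAAT boxes (CCAAT or its reverse complement ATTGG) and GC boxes (GGGCGG or its reverse complement CCGCCC). The genes shown are 2 with lower means under PIO, Hmgcs1 and Msmo1, and 2 with higher means, Mvk and Nr1h2. None of these genes passed the test described below. The windows are chr2:53382054-53382303 (plus strand) for Hmgcs1, chr16:29746863-29747112 (plus strand) for Msmo1, chr12:47819504-47819753 (minus strand) for Mvk and chr1:104183864-104184113 (minus strand) for Nr1h2.
Hmgcs1: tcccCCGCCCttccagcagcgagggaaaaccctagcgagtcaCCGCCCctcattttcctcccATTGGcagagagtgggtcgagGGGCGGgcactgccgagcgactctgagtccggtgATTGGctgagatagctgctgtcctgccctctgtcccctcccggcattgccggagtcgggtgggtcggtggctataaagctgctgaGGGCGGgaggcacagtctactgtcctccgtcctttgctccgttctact
Msmo1: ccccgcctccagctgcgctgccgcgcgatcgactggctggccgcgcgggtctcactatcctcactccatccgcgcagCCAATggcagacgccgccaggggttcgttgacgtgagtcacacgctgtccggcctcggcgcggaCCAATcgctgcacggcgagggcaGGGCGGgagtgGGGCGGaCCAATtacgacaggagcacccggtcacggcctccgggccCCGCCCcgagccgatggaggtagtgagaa
Mvk: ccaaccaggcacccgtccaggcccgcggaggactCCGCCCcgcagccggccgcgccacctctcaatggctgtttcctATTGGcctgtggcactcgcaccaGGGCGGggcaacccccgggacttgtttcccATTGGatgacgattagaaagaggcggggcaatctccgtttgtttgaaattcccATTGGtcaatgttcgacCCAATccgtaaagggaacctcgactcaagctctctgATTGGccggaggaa
Nr1h2: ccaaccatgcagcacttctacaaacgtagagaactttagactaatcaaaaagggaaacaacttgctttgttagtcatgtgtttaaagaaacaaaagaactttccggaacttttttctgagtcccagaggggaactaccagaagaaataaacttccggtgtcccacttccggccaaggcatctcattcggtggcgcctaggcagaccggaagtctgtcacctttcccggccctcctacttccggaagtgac

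The CCAAT box is read by the factor NF-Y and the GC box by Sp1, which are known to act beside SREBP2. Hmgcs1 held 2 CCAAT boxes and 4 GC boxes in this stretch, Msmo1 held 3 and 3, Mvk held 5 and 2, and Nr1h2 held none of either. Over a window that also takes in the 50 bases after the start, searched on both strands, 12 of 15 synthesis promoters (80.0%) had a CCAAT box, against 37.5% of 33469 rat promoters. A GC box was in 13 of the 15 (86.7%), against 33.1% of all promoters. The elements were not particular to synthesis. Each was in 3 of 4 sterol sensing promoters, and both were in the promoters of Mylip and Soat1. Most rat promoters lack a CCAAT box and most lack a GC box, so their absence from Nr1h2 is not unusual. Among the efflux and LXR genes, which had 6 promoters for 4 genes because Apoe has 3, a CCAAT box was found for 1 of the 4 genes (Apoe) and a GC box for 2 (Apoe and Abca1). The exact letters TCACNCCAC, a form of the sterol regulatory element, were in none of the 27 and in 1.12% of all promoters. AGGTCA, the core letters bound by nuclear receptors, were in 2 of the 27, Fdps and Nsdhl, and in 16.2% of all promoters. Such matches describe letters in a window and are not binding sites. Whether these elements go with the direction of any difference under PIO was not tested.

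RBL-2H3 cells expressed nearly the whole synthesis route, at levels that differed widely between steps. Per length, the highest was Fdps, which makes farnesyl diphosphate, at 304 FPKM on average over the 6 libraries (277 to 327), above 97.9% of the 10410 genes abundant enough to test. It was followed by Cyp51, the lanosterol demethylase gene, at 121 FPKM (116 to 127) and by Msmo1, the methylsterol oxidase gene, at 104 FPKM (97.7 to 113). These 3 did not overlap with each other or with any lower gene. The squalene epoxidase gene Sqle came next at 58.8 FPKM (55.6 to 64.1) and Hmgcs1, the HMG-CoA synthase gene, at 53.5 FPKM (47.2 to 57.2). Their ranges overlapped, although Sqle was the higher in all 6 libraries.

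The synthesis genes of middle abundance, which belong to early and late steps, lay close together. Mvd, Ebp, Pmvk, Dhcr7, Idi1, Mvk and Nsdhl had means from 48.7 down to 27.1 FPKM, and Idi1 and Mvk had the same mean of 29.6 FPKM. Below them were Sc5d, the sterol desaturase gene, at 20.8 FPKM (19.8 to 21.6), the squalene synthase gene Fdft1 at 19.2 FPKM (18.5 to 19.8) and Acat2, the cytosolic thiolase gene, at 15.3 FPKM (13.3 to 16.9). The lanosterol synthase gene Lss was at 14.8 FPKM (13.9 to 16.0), a range that overlapped with that of Acat2. Tm7sf2, a sterol reductase gene, was the lowest measured synthesis gene at 3.51 FPKM (3.09 to 4.03). Hsd17b7, the sterol ketoreductase gene, was listed at 0 in all 6 libraries. Such a 0 may mean that reads were not assigned, because Polr2h, an RNA polymerase subunit gene that every cell uses, was also listed at 0 in all 6, so nothing follows from it for Hsd17b7.

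**Figure D1:**
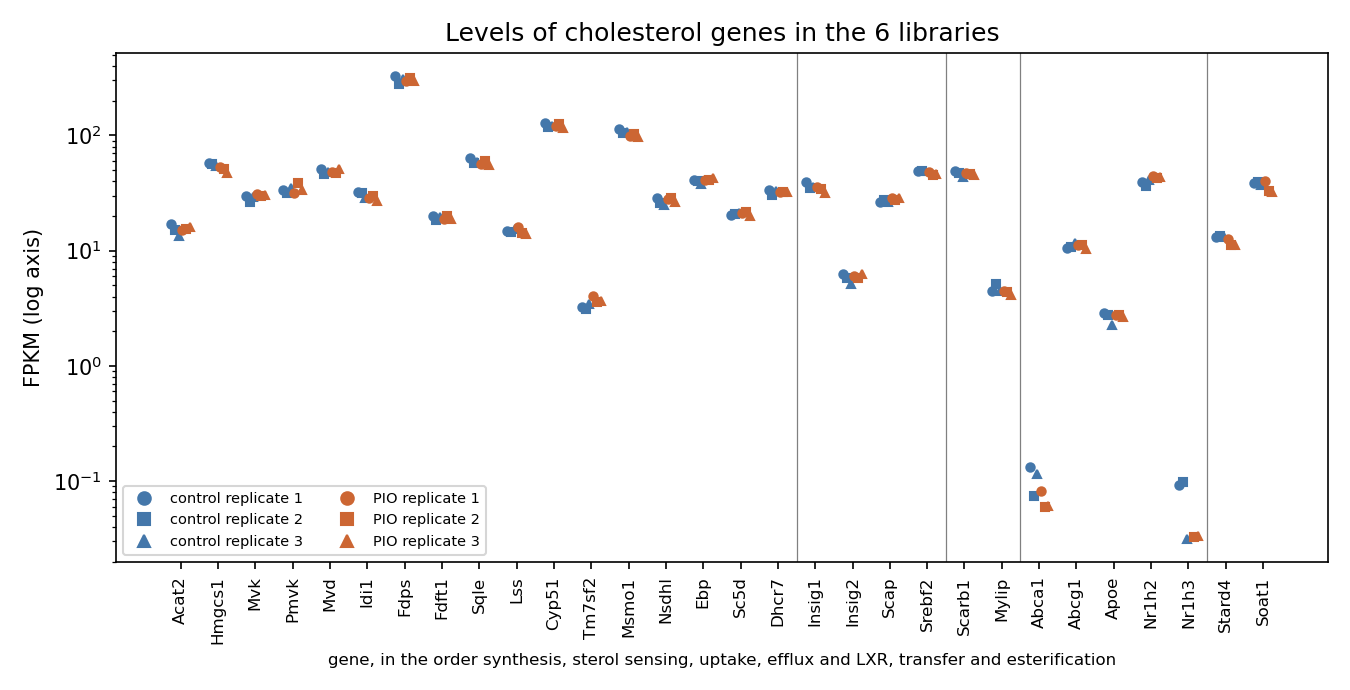
FPKM (log axis) of each gene in each of the 6 libraries, as points by group (colour) and replicate (shape), with the 5 roles separated by vertical lines. Hsd17b7 and Nr1h3 in PIO replicate 1 are at 0 and are not drawn; Fdps is the highest at 277 to 327 FPKM, while Abca1 and Nr1h3 lie far below their relatives Abcg1 and Nr1h2.

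PIO against control was tested with limma on log2(FPKM + 0.5), a scale that understates changes of low genes, with Benjamini-Hochberg adjustment over all 10410 genes that had a mean of at least 0.5 FPKM. Of the 31 cholesterol genes 28 were tested, and none passed, with adjusted p from 0.332 to 0.986. limma-voom on the recovered reads also called 0 of the 28. Over all genes tested 4 (0.0384%) were called. Among the 28, 14 were higher and 14 lower. Their median log2 fold change was -0.002, against 0.009 for all genes tested. The log2 fold changes lay between -0.18 and 0.18, and no 95% interval reached beyond a fold of 0.801 or 1.29. Changes of the size seen for Cpt1a therefore lay outside the interval of every tested gene. At an unadjusted p under 0.05, 5 of the 28 (17.9%) stood out, namely Hmgcs1, Msmo1, Tm7sf2, Nr1h2 and Stard4, against 12.5% of all genes tested. In 9 of them the values of the groups stayed apart. PIO was wholly above control for 4 genes (14.3%), against 10.5% of all genes tested, and wholly below for 5 genes (17.9%), against 8.09%. Without control replicate 3, 0 were called and 10 did not overlap, against 30.2% of all genes tested in that smaller comparison. Without PIO replicate 1, 0 were called and 13 did not overlap, against 34.0%.

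**Figure D2:**
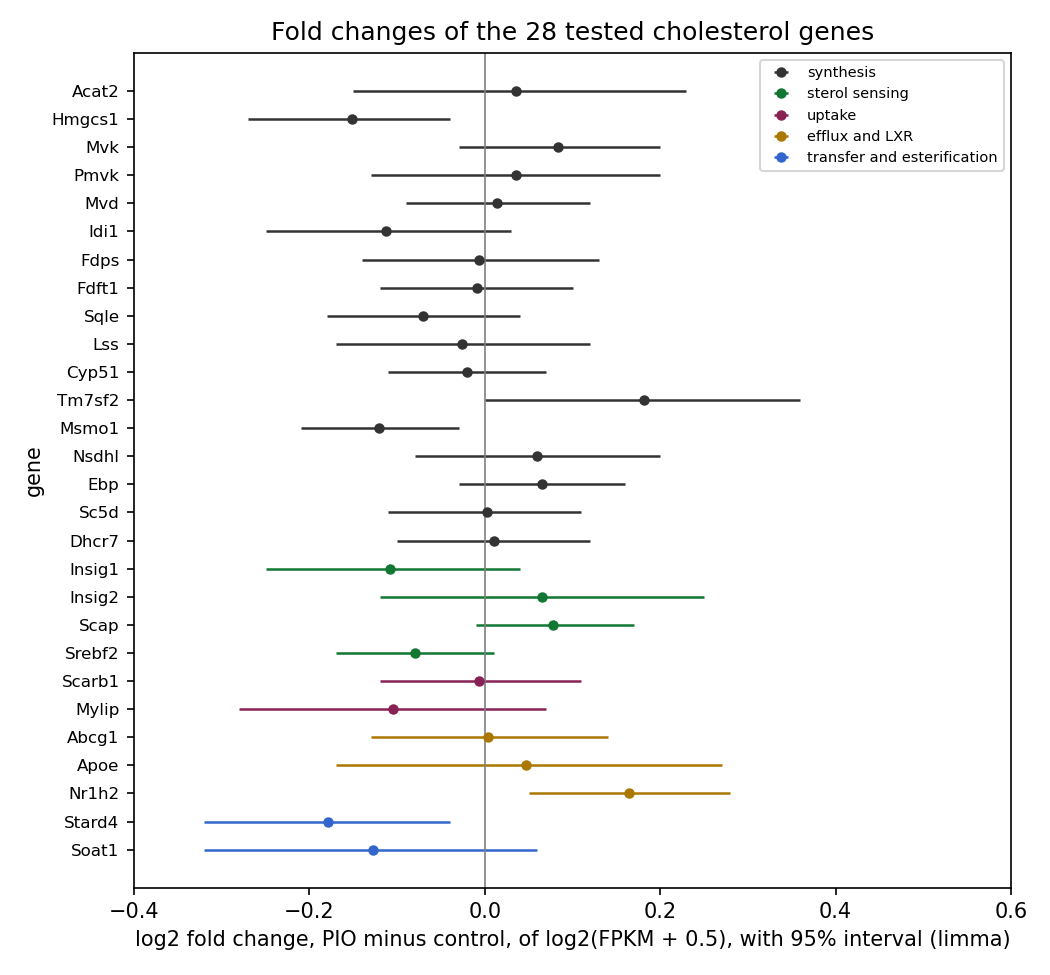
Log2 fold change of PIO minus control for the 28 tested genes, with the limma estimate as a point and its 95% interval as a bar, coloured by role. Estimates run from -0.18 (Stard4) to 0.18 (Tm7sf2), and every interval stays between folds of 0.801 and 1.29.

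Of the 17 tested synthesis genes 9 were higher and 8 lower, and their median log2 fold change was 0.003. None passed the test, and 2 were wholly above and 2 wholly below the controls, close to the 10.5% and 8.09% of all genes tested. The first 7 steps, from Acat2 to Fdps, had a median of 0.014 and the 10 tested steps from Fdft1 on had -0.003, so neither stretch stood off from 0. Hmgcs1, which commits acetyl units to the route, was at 57.2, 56.9 and 54.7 FPKM in the controls and 53.3, 51.5 and 47.2 FPKM with PIO. All 3 PIO values were below all 3 controls, and PIO replicate 3 was the lowest. The means were 56.3 ± 1.34 and 50.7 ± 3.15 FPKM (SD, n = 3 per group), and the log2 fold change was -0.15 (SE 0.050, limma adjusted p = 0.340).

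Msmo1 encodes the enzyme that starts the removal of the methyl groups left after the Cyp51 step. It was at 113, 104 and 108 FPKM in the controls and 99.4, 102 and 97.7 FPKM with PIO. Again the groups did not overlap, with PIO replicate 2 closest to the controls. Its log2 fold change was -0.12 (SE 0.040, limma adjusted p = 0.340), from 108 ± 4.49 to 99.6 ± 2.03 FPKM (SD, n = 3). In the other direction stood Tm7sf2, at 3.25, 3.09 and 3.41 FPKM and then 4.03, 3.57 and 3.68 FPKM. It was measured with only 64 to 83 reads per library, and counting alone gives an error of 11.6% for such numbers. Its log2 fold change of 0.18 (SE 0.079, limma adjusted p = 0.396) corresponds to 3.25 ± 0.160 and 3.76 ± 0.239 FPKM (SD, n = 3). Lbr, named after its values were seen, encodes the other enzyme with this reductase activity and was far more abundant. It was at 60.2, 67.4 and 69.9 FPKM in the controls and 60.5, 49.3 and 48.9 FPKM with PIO. Its log2 fold change was -0.32 (limma adjusted p = 0.304), and PIO replicate 1 overlapped with the controls.

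Mvk, the mevalonate kinase gene, was at 29.9, 26.7 and 29.5 FPKM in the controls and 30.9, 30.1 and 30.3 FPKM with PIO. The groups were separated only narrowly, and the log2 fold change was 0.08 (SE 0.050, limma adjusted p = 0.515). Idi1, the isopentenyl diphosphate isomerase gene, was at 32.0, 31.9 and 28.4 FPKM and then 28.7, 29.7 and 26.9 FPKM. Control replicate 3 lay among the PIO values, and the log2 fold change was -0.11 (SE 0.060, limma adjusted p = 0.473). Sqle was at 64.1, 57.7 and 59.0 FPKM and then 56.9, 59.5 and 55.6 FPKM, with overlap (log2 fold change -0.07, limma adjusted p = 0.565).

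Fdps, Cyp51 and Dhcr7 showed no difference beyond their spread. Fdps was at 327, 277 and 311 FPKM in the controls and 299, 315 and 295 FPKM with PIO, and its log2 fold change was -0.01 with an interval from -0.14 to 0.13. Cyp51 was at 127, 119 and 121 FPKM and then 121, 125 and 116 FPKM, with -0.02 and an interval from -0.11 to 0.07. Dhcr7, the reductase gene of the last step to cholesterol in a branch of the route, was at 33.3, 30.2 and 33.0 FPKM and then 32.2, 32.4 and 32.6 FPKM, with 0.01 and an interval from -0.10 to 0.12. In these 3 genes the PIO values overlapped with the control range. A further 7 genes overlapped, with adjusted p from 0.547 to 0.985 (limma). The phosphomevalonate kinase gene Pmvk had means of 33.6 ± 1.80 and 34.5 ± 3.46 FPKM and Mvd, the gene of the next enzyme, 48.4 ± 2.12 and 48.9 ± 1.73 FPKM (SD, n = 3, control and then PIO). Fdft1 had 19.3 ± 0.719 and 19.2 ± 0.538 FPKM, and Lss had 14.9 ± 0.467 and 14.7 ± 1.13 FPKM. Among the late steps, the dehydrogenase gene Nsdhl had 26.6 ± 2.00 and 27.7 ± 1.29 FPKM, the isomerase gene Ebp 39.9 ± 1.51 and 41.7 ± 1.18 FPKM, and Sc5d 20.8 ± 0.401 and 20.9 ± 0.971 FPKM. Their log2 fold changes ran from -0.03 for Lss to 0.07 for Ebp. Acat2 (16.9, 15.2 and 13.3 FPKM, then 15.0, 15.4 and 16.0 FPKM; log2 fold change 0.04, limma adjusted p = 0.874) is uncertain, because reads can be shared with its near copy Acat2l1. That copy had 2.47 to 2.78 FPKM in the controls and 4.31, 2.69 and 2.69 FPKM with PIO.

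Across the route, libraries of the same group differed by as much as the groups did. The median deviation of the 17 from their control mean, in log2 units, was 0.051, -0.053 and -0.004 in control replicates 1 to 3 and -0.004, 0.032 and -0.041 with PIO. Control replicate 1 held the highest value of 10 of the 17 genes and the lowest of 0, while it held the highest of 10.3% of all genes tested. PIO replicate 3 held the lowest value of 7 (20.0% of all genes tested) and control replicate 2 of 6 (17.1%). The summed FPKM of the 18 genes was 1012, 921.5 and 964.1 in the controls and 945.5, 975.5 and 926.8 with PIO, with overlap between the groups.

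Among the sterol sensors, the 2 INSIG genes differed in abundance and in direction, within their spread. Insig1, itself a known SREBP target, was at 39.4, 35.0 and 35.7 FPKM in the controls and 35.9, 34.6 and 31.6 FPKM with PIO, with a log2 fold change of -0.11 (SE 0.062, limma adjusted p = 0.501). Insig2 was at 6.29, 5.81 and 5.15 FPKM and then 6.05, 5.74 and 6.28 FPKM, with 0.07 (SE 0.082, limma adjusted p = 0.758). Both overlapped between the groups, and Insig1 was 5.04 to 6.93 times as high as Insig2 within each library.

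Srebf2, the gene of SREBP2, was at 49.2, 49.0 and 49.1 FPKM in the controls and 48.1, 45.0 and 46.2 FPKM with PIO. The control values were very close together and all PIO values lay below them. The log2 fold change was -0.08 (SE 0.038, limma adjusted p = 0.429), from 49.1 ± 0.119 to 46.4 ± 1.54 FPKM (SD, n = 3). Scap, its chaperone gene, was at 26.7, 27.3 and 26.7 FPKM and then 28.9, 27.6 and 28.7 FPKM. All PIO values were above the controls, with a log2 fold change of 0.08 (SE 0.040, limma adjusted p = 0.446).

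The uptake genes gave no difference that passed. Scarb1, the gene of the scavenger receptor that takes cholesterol esters from HDL, was at 48.7, 47.1 and 43.4 FPKM in the controls and 47.2, 46.3 and 44.9 FPKM with PIO. The groups overlapped fully, and the log2 fold change was -0.01 with an interval from -0.12 to 0.11 (limma adjusted p = 0.963). Mylip was at 4.51, 5.11 and 4.45 FPKM and then 4.43, 4.41 and 4.12 FPKM. PIO lay below control by a very small margin, with control replicate 2 apart from the rest, and the log2 fold change was -0.11 (SE 0.077, limma adjusted p = 0.583).

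On the efflux side, both families were represented almost wholly by 1 member. Nr1h2, the gene of LXRβ, had 39.2, 36.2 and 41.3 FPKM in the controls and 44.3, 42.9 and 43.6 FPKM with PIO. All PIO values were above the controls, at means of 38.9 ± 2.57 and 43.6 ± 0.715 FPKM (SD, n = 3). The log2 fold change was 0.16 (SE 0.052, interval 0.05 to 0.28), the smallest unadjusted p of the 28 (0.0124), and it did not pass (limma adjusted p = 0.332). Nr1h3, the gene of LXRα, had 3, 3 and 1 reads in the controls and 0, 1 and 1 with PIO. No library held more than the 3 reads that a gene seen at 0 could have had, so no fold is given. PIO libraries thus held no more Nr1h3 reads than the controls, and a small difference in either direction was not detectable at this depth. Over the 6 libraries it had 9 reads against 6875 for Nr1h2.

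Abcg1, the exporter gene that loads HDL, was at 10.5, 10.8 and 11.6 FPKM in the controls and 11.3, 11.2 and 10.4 FPKM with PIO. The values overlapped, and the log2 fold change of 0.00 had an interval from -0.13 to 0.14 (limma adjusted p = 0.986). Abca1, the exporter gene that loads lipid-poor apolipoproteins, had 21, 11 and 18 reads in the controls and 12, 9 and 9 reads with PIO, or 0.132, 0.0742 and 0.116 FPKM and then 0.0813, 0.0598 and 0.0608 FPKM. It was too low for the main test, control replicate 2 lay among the PIO values, and the ratio of pooled reads was 0.621. The exact 95% interval of that ratio, 0.381 to 0.996, covers counting error only, not the spread between libraries. Abcg1 was 79.4 to 187 times as high as Abca1 within a library. Apoe was at 2.87, 2.76 and 2.28 FPKM and then 2.77, 2.77 and 2.65 FPKM, from 45 to 58 reads per library (log2 fold change 0.05, interval -0.17 to 0.27, limma adjusted p = 0.854).

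The lowest estimate of all was that of Stard4, which encodes a soluble carrier of cholesterol and is a known SREBP2 target. It was at 13.2, 13.5 and 13.2 FPKM in the controls and 12.7, 11.3 and 11.2 FPKM with PIO. All PIO values were below the controls, and PIO replicate 1 was much closer to them than PIO replicates 2 and 3. The means were 13.3 ± 0.182 and 11.7 ± 0.822 FPKM (SD, n = 3), and the log2 fold change was -0.18 (SE 0.059, limma adjusted p = 0.340). Soat1, the gene of the enzyme that stores cholesterol as esters, showed the same unevenness. It was at 38.7, 39.4 and 36.8 FPKM in the controls and 40.6, 33.0 and 32.1 FPKM with PIO. PIO replicate 1 was above every control and the other two PIO replicates were below every control, which gave a log2 fold change of -0.13 with an interval from -0.32 to 0.06 (limma adjusted p = 0.544). Without PIO replicate 1 the adjusted p of Soat1 was 0.154, the smallest of any tested gene of the set under any alternative.

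**Figure D3:**
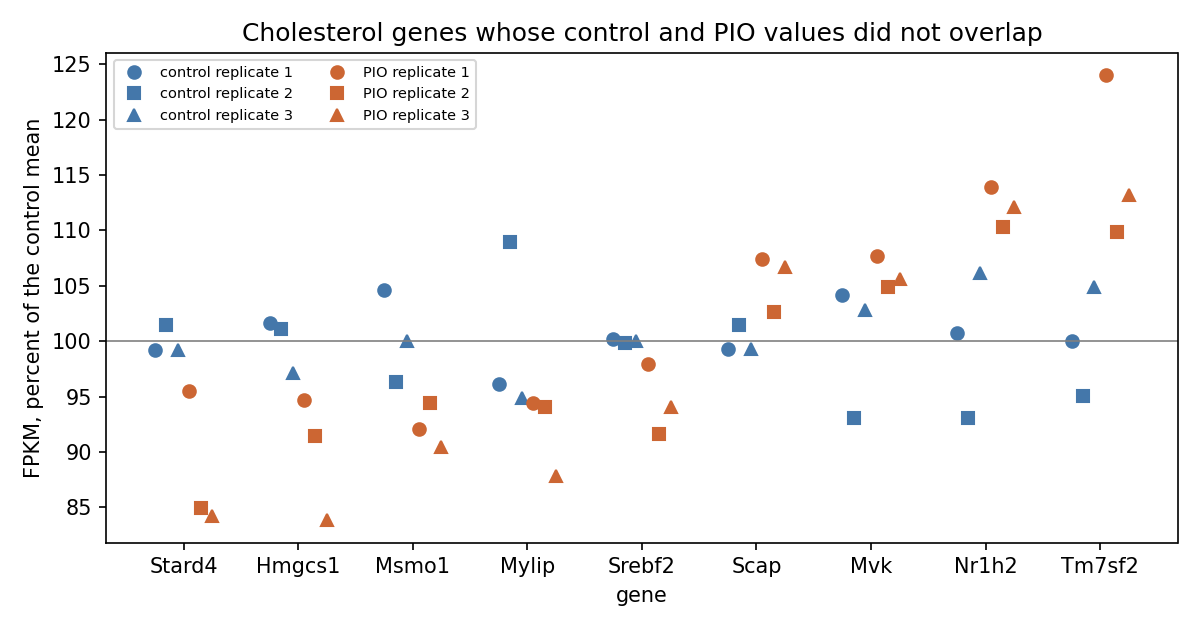
FPKM in each library as a percentage of the control mean of the gene, for the 9 genes whose control and PIO values did not overlap, with groups by colour and replicates by shape. Stard4, Hmgcs1, Msmo1, Mylip and Srebf2 lie below the controls and Scap, Mvk, Nr1h2 and Tm7sf2 above, and none passed the test.

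Gene length moved with the direction of difference. Over all genes tested, the median log2 fold change was 0.047 in the shortest 2603 genes (156 to 1666 bases) and -0.033 in the longest 2603 (4597 to 36309 bases). The 4 cholesterol genes wholly above control had a median length of 1779.5 bases (1467 to 5917) and the 5 wholly below 3498 bases (1712 to 5590). With each library's trend with length removed, an alternative added after the data were seen, the log2 fold change was -0.15 for Hmgcs1, -0.15 for Msmo1, -0.16 for Stard4, 0.14 for Nr1h2 and 0.15 for Tm7sf2. Mvk, at 0.05, then overlapped between the groups. Scap also overlapped under TPM scaling (0.05).

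The arms can be set side by side by their median log2 fold change, as a description without a test. It was 0.003 for synthesis (17 tested), -0.007 for sterol sensing (4), -0.056 for uptake (2), 0.047 for efflux and LXR (3) and -0.153 for transfer and esterification (2), against 0.009 for all genes tested. The synthesis and sterol sensing medians were smaller than the spread between libraries (SD 0.045 and 0.036 log2 units), and so was that of uptake (0.061). The efflux median of 0.047 was Apoe's and about equal to its spread of 0.041, and the arm's PIO values overlapped with control replicate 3. That median leaves out Abca1 and Nr1h3, which were too low to test. Abca1 had 50 pooled reads in the controls and 30 with PIO, and Nr1h3 had 7 and 2. The transfer and esterification arm was at 0.006, -0.223 and -0.244 with PIO replicates 1 to 3, against 0.031 and -0.031 in control replicates 2 and 3, so its median rested on PIO replicates 2 and 3. With 1 library left out at a time, the median ran from -0.032 (without control replicate 2) to 0.037 (without control replicate 1) for synthesis and from -0.043 (without control replicate 3) to 0.019 (without PIO replicate 2) for sterol sensing, so neither kept its sign. It ran from -0.096 (without control replicate 3) to -0.022 (without control replicate 2) for uptake. For efflux and LXR it ran from 0.039 (without PIO replicate 1 or 2) to 0.103 (without control replicate 1), and for transfer and esterification from -0.233 (without PIO replicate 1) to -0.108 (without PIO replicate 3).

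**Figure D4:**
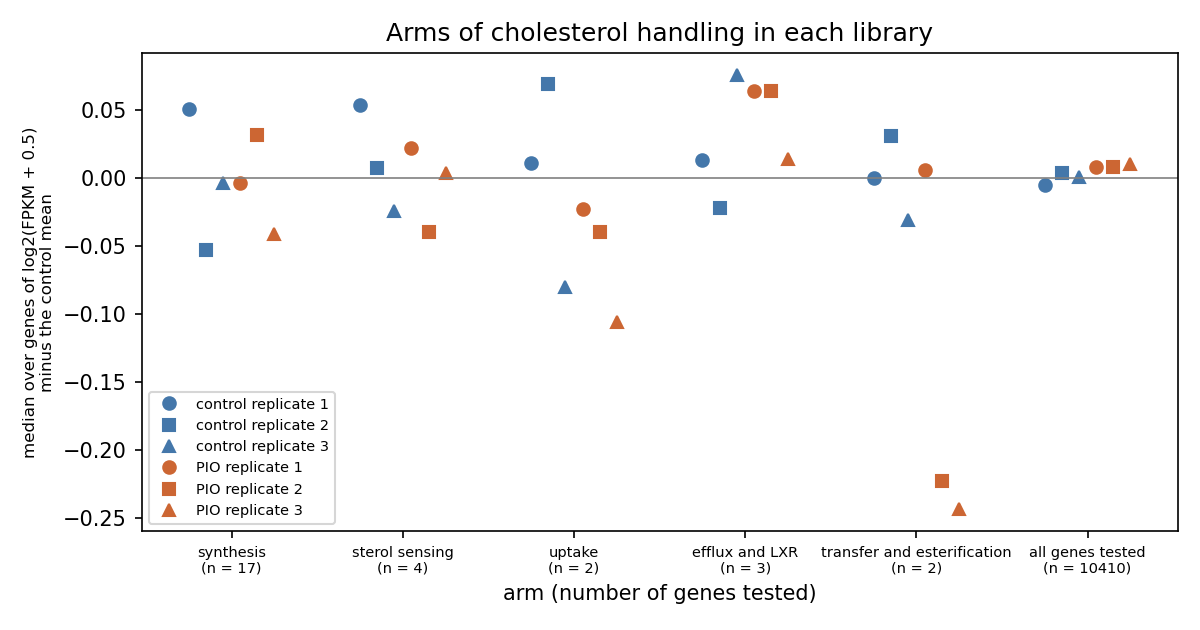
Median over the tested genes of each role of log2(FPKM + 0.5) minus the control mean, a point per library, with all genes tested at the right. The groups overlap in every role; in transfer and esterification PIO replicates 2 and 3 lie at -0.223 and -0.244, and PIO replicate 1 lies at 0.006 among the controls.

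Neighbouring genes of sterol metabolism were examined from 5 lists with 63 genes, of which 49 were abundant enough to test. None of the 49 passed in either direction (limma), 4 had an unadjusted p under 0.05 (12.5% of all genes tested did), and limma-voom also called 0. Of the 49, 6 had PIO values wholly above and 2 wholly below the controls, against 10.5% and 8.09% of all genes tested. Of the 12 genes of SREBP processing and sterol-regulated degradation, 5 were higher and 7 lower. Rnf145, the gene of a sterol-responsive ubiquitin ligase that acts on SCAP, had 9.15, 10.6 and 7.92 FPKM in the controls and between 11.0 and 11.4 FPKM in the PIO libraries, that is 0.28 on the log2 scale (limma adjusted p = 0.340). All PIO values exceeded the controls, which were more scattered. Rnf139, another ubiquitin ligase gene of this branch, was at 28.8 to 31.1 FPKM in the controls and 27.4 to 28.5 FPKM with PIO, without overlap (-0.11, limma adjusted p = 0.387). The third gene of this list by p was Ufd1l (0.07, limma adjusted p = 0.490).

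Of the 11 other genes of the mevalonate and sterol route 8 were higher and 3 lower. Por, which supplies electrons to Cyp51 and Sqle enzymes, had 202, 200 and 201 FPKM in the controls and 210, 208 and 223 FPKM with PIO, that is 0.09 on the log2 scale (limma adjusted p = 0.390). The prenyl chain enzyme genes Pdss1 (-0.18, limma adjusted p = 0.402) and Ggps1 (-0.09, limma adjusted p = 0.571) overlapped between the groups. Of 14 tested genes of sterol transport and ester hydrolysis 11 were higher and 3 lower, led by Arv1 (0.16, limma adjusted p = 0.381), Scp2 (0.10, limma adjusted p = 0.439) and Stard3 (0.09, limma adjusted p = 0.467). Scp2 and Stard3 had PIO values wholly above control, whereas Arv1 overlapped. Of a list of other LXR targets, lipid exporters and corepressor genes 7 of 11 were tested, 4 higher and 3 lower. Lpcat3, the phospholipid remodelling gene and a known LXR target, had 197, 191 and 196 FPKM and then 200, 200 and 204 FPKM (0.05, limma adjusted p = 0.547). It was followed by Abca2 (0.14, limma adjusted p = 0.628) and the corepressor gene Ncor1 (-0.04, limma adjusted p = 0.694). Only 5 of 14 lipoprotein receptor and oxysterol enzyme genes could be tested, and Soat2 (-0.14), Lrp8 (-0.08) and Lrp1 (-0.09) had limma adjusted p of 0.663, 0.688 and 0.729.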

How the data were processed

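Per the labels' protocols, stranded mRNA libraries were built from TRIzol-extracted total RNA. The authors deposited FPKM for each gene in each library. The submitters' processing notes name HISAT2 2.2.1.0 and BWA 0.7.5a, Cufflinks, HTSeq and DESeq, without their roles, and the build GRCh38. That is a human build, while the table's gene names and identifiers are those of the rat, so the build behind the values is unclear and promoter positions are those of GRCr8 from RefSeq.

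Within a gene, FPKM are whole multiples of the value of 1 read. The smallest whole length giving whole reads in all 6 libraries (tolerance 0.0001 reads) was found for 15427 of 15429 genes above 0 (99.99%). Reads without molecular identifiers are not independent molecules, so counting intervals and the floor of 3 reads cover counting error only.

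The 10410 genes whose mean reached 0.5 FPKM were tested in R 4.3.3 by limma 3.58.1, applied to log2(FPKM + 0.5) (group as the only term, variance trend, two-sided, Benjamini-Hochberg at 0.05, 95% intervals). An exact permutation test of 3 against 3 cannot go below p = 0.1 and was not used. Tables were made in Python 3.11.15 with pandas 2.3.3 and scipy 1.17.1, and plots with matplotlib 3.10.9. The code was tested on simulated data. All 31 genes are named, and of the neighbouring lists the 3 with the smallest p. The members, lists and tests were chosen with earlier results of these data known. Alternatives were other pseudocounts, filters, scalings and variance models, sample weights, a replicate block, leaving out each library, limma-voom on recovered reads, and a gene length correction added after the data were seen.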

Additional observations from a re-analysis of the deposited data

How the results depend on the processing

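The comparison was repeated under 20 alternatives, and 0 of the cholesterol genes were called in any of them. The smallest adjusted p of any tested cholesterol gene was 0.154 (limma, Soat1 without PIO replicate 1). Over all genes tested 4 were called, against 1 without a filter, 2 without a variance trend, 3 with a minimum mean of 5 FPKM, 5 with a pseudocount of 0.1, 6 with sample weights, 7 with a robust variance fit and 7 with limma-voom. The 9 genes whose groups did not overlap became 7 to 9 when no library was left out, and 10 to 13 with a library left out, while the share of all genes tested went from 18.5% to between 25.9% and 34.0% with a library left out. Same-numbered libraries correlated at -0.068, 0.028 and 0.078 in their deviations from the group means, and differently numbered ones at -0.094 to 0.082. The numbers thus gave no sign of pairing. With 3 libraries per group this cannot settle whether same-numbered libraries were handled together. With the replicate block 3 genes were called over all genes and 0 among the cholesterol genes, so no call of theirs differed. The direction of some near-zero log2 fold changes differed from that reported, and the cause was not tested. With sample weights they were -0.000098 for Acat2, 0.029 for Fdps and 0.012 for Fdft1. The gene length correction gave -0.011 for Pmvk and -0.013 for Mvd. TPM scaling gave -0.015 for Mvd, -0.025 for Sc5d, -0.017 for Dhcr7 and -0.024 for Abcg1, and median of ratios scaling gave -0.0029 for Sc5d and -0.0025 for Abcg1. With each library left out in turn, log2 fold changes ranged from -0.052 to 0.12 for Acat2, -0.042 to 0.095 for Pmvk, -0.013 to 0.048 for Mvd, -0.074 to 0.044 for Fdps, -0.039 to 0.011 for Fdft1, -0.087 to 0.0097 for Lss and -0.047 to 0.0075 for Cyp51. They ranged from -0.02 to 0.041 for Sc5d, -0.032 to 0.037 for Dhcr7, -0.0055 to 0.13 for Insig2, -0.054 to 0.027 for Scarb1, -0.023 to 0.042 for Abcg1 and -0.038 to 0.1 for Apoe. The efflux and LXR median ranged from 0.039 to 0.103. Depth limited Abca1 and Nr1h3 most, and Apoe and Tm7sf2 among the tested genes.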
